A study of Mus musculus with 12 samples.

Results

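A panel of 46 genes for DNA replication and mitosis was followed across 4 groups of mouse bone marrow cells: 30 genes that act around the start of DNA synthesis (G1/S genes) and 16 that act from late S phase through mitosis (G2/M genes). They were taken by gene symbol from a list of well known cell-cycle genes. All 46 were among the 19910 symbols of the count table and among the 10993 genes with enough counts to be tested. Marrow came from female C57BL/6J mice aged 6 to 10 weeks (strain label C57Bl/6) and was transduced with retrovirus packaged in 293T17, a human embryonic kidney cell line. Every library received a pair of vectors. These were 2 empty vectors (empty-vector group), mutant SETBP1 (D868N) with an empty vector (SETBP1 group), an empty vector with mutant NRAS (G12D) (NRAS group), or mutant SETBP1 (D868N) with mutant NRAS (G12D) (SETBP1+NRAS group). The NRAS protein is a small GTPase of the MAPK pathway, SETBP1 is a nuclear protein that binds DNA, and the series title asks how the mutants act together in leukaemia. There were 3 libraries per group, 12 in all, from bone marrow labelled as murine leukemia cells in every group, the empty-vector group included. Nothing in the labels ties the replicates to separate mice or transductions, so p-values measure only the spread between these libraries, which may be technical.

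Replication and mitosis genes are expressed in waves. Origins are licensed in G1 by loading of the MCM helicase, E2F transcription factors switch on replication and nucleotide synthesis genes with cyclin E at the G1/S boundary, and the CHR element in mitotic promoters is bound by the repressor complex DREAM in resting cells and by B-MYB and FOXM1 complexes in G2. In bone marrow, progenitors divide and carry these transcripts, whereas mature neutrophils have left the cell cycle.

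Promoters of both sets were examined first, because they carry the elements through which these waves are known to be timed. RefSeq promoters (GRCm38.p6, 300 bases, from 250 before to 50 after the listed start) were found for 25 of the 30 G1/S genes and 14 of the 16 G2/M genes. Mcm4, Gins1, Gins2, Pole, Ccne2, Ccna2 and Aurkb had no entry. Searched on both strands were the E2F-type octamers TTTCCCGC, TTTCGCGC, TTTGCCGC and TTTGGCGC, the CHR hexamer TTTGAA and the pentamer CCAAT. The octamers can overlap one another on opposite strands. An E2F octamer lay in 10 of 25 G1/S promoters (40.0%), in 1 of 14 G2/M promoters (7.14%), in 4.23% of the 8836 promoters of tested genes and in 2.32% of all 27025 promoters. The CHR hexamer lay in 10 of 14 G2/M promoters (71.4%), in 2 of 25 G1/S promoters (8.0%), in 11.9% of the promoters of tested genes and in 18.1% of all promoters. CCAAT lay in 13 of 14 G2/M promoters (92.9%) and 16 of 25 G1/S promoters (64.0%), against 39.1% and 37.9%. The 150 bases before the start are shown 5′ to 3′ on the gene's own strand for 6 genes, with matches in capitals: an MCM gene with several octamers, the cyclin E1 gene and Orc6, which led the changes with NRAS, Cdk1, the mitotic gene with both an octamer and a CHR match in its 300 bases, and Kif11 and Top2a, which fell with SETBP1.
Mcm6: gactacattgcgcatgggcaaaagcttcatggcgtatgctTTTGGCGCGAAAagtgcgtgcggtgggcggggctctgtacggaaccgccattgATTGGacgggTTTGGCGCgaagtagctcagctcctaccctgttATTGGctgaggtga
Ccne1: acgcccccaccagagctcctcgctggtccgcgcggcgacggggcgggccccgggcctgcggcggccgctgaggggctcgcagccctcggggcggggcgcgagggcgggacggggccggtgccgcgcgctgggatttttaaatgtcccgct
Orc6: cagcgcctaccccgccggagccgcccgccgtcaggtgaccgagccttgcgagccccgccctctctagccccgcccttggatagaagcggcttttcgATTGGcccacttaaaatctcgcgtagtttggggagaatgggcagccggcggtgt
Cdk1: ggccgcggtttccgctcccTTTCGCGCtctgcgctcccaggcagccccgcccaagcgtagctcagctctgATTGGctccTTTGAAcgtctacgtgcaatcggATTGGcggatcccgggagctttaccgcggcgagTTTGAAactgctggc
Kif11: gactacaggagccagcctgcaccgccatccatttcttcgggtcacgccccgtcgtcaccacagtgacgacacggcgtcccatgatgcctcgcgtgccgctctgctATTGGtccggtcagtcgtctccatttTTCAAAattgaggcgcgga
Top2a: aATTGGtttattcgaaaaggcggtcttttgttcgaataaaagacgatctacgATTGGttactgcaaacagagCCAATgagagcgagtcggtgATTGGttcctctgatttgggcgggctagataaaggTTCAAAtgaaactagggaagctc
The windows are chr1:128359706-128359855, chr7:38107491-38107640, chr10:69352913-69353062 and chr11:99024190-99024339 on the minus strand, and chr8:85299482-85299631 and chr19:37376232-37376381 on the plus strand. A match is a run of letters and not a measured binding site. The 12 genes that rose with NRAS both without and with SETBP1 had 11 promoters in the table, of which 2 held an octamer, 3 a CHR hexamer and 9 CCAAT.

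Depth was 7085894 to 8864919 counts per library, and normalised CPM values (counts scaled to library size with edgeR's TMM factors) are used throughout. Scaled to library totals, Nras stood at 90.4 ± 5.43 and 89.5 ± 7.59 CPM (SD, n = 3) in the empty-vector and SETBP1 groups and at 1491 ± 164 and 1497 ± 53.1 CPM in the NRAS and SETBP1+NRAS groups. Setbp1 had 0 counts in every empty-vector and NRAS library, 5 to 7 counts in the SETBP1 libraries and 11 to 17 counts in the SETBP1+NRAS libraries. SETBP1 replicate 3 stood apart: its correlation with its own group was 0.946 and 0.953 across genes, against 0.984 to 0.991 for the other within-group pairs, and 11835 genes were detected in it against 12461 to 12800 elsewhere. Its replication and mitosis genes deviated by transcript length. Relative to the mean of SETBP1 replicates 1 and 2, on the log2 scale with 0.5 CPM added, all 11 members with a longest transcript under 2000 bases were higher in it (median 0.27), and 10 of the 12 members of 4000 bases or more were lower (median -0.48). Over all tested genes of those lengths, 2120 of 2772 were higher and 2769 of 3665 lower, with medians of 0.24 and -0.43. Such counts of members alone did not set this library apart. Against the other libraries of its group, NRAS replicate 3 was lower for all 11 short members, with a median of -0.05. SETBP1+NRAS replicate 3 was lower for 10 of the 12 long members, with a median of -0.15. The shift was larger in SETBP1 replicate 3. E2f2 and Pola1 were lowest, at 26.5, 28.7 and 8.64 CPM and 45.2, 43.6 and 14.6 CPM in SETBP1 replicates 1, 2 and 3. Counts of called genes are therefore also given without that library, which also enters the estimate of spread in comparisons that do not use its group.

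**Figure D1:**
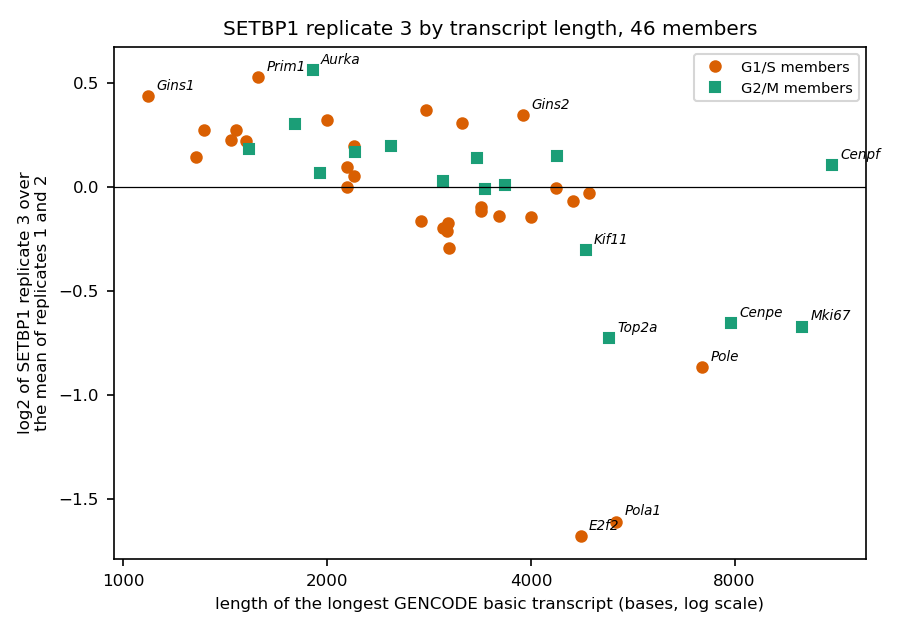
Each point is 1 of the 46 genes, with the length of its longest annotated transcript in bases on a log axis and, on the y axis, the log2 ratio of its CPM in SETBP1 replicate 3 to the mean of SETBP1 replicates 1 and 2. All 11 genes under 2000 bases lie above 0, and 10 of the 12 genes of 4000 bases or more lie below it.

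Marrow identity and cell mixture were read from marker lists. All 8 markers of blood cells and myeloid progenitors (Ptprc, Spi1, Cebpa, Mpo, Kit, Cd34, Csf3r and Itgam) were detected in every group. Their summed levels were 15994 to 17703 CPM in the empty-vector libraries, 9919 to 12618 with SETBP1, 7653 to 7873 with NRAS and 4472 to 4916 with both. The 11 late neutrophil genes measured (such as Camp, Ltf and S100a8; Ly6g was not analysed here) summed to 11375 to 12833, 5201 to 7442, 5942 to 7600 and 2009 to 2514 CPM in the same order. Monocyte and macrophage genes summed to 1215 to 1446, 1732 to 2676, 1273 to 1382 and 1817 to 1881 CPM, and mast cell and basophil genes to 2907 to 2999, 1571 to 2250, 496 to 833 and 237 to 353 CPM. Erythroid genes summed to 33.6 to 36.1, 20.1 to 24.4, 19.3 to 25.6 and 4.71 to 8.32 CPM, with the 4 globin genes and Slc4a1 at 0 counts in every library. Stromal and endothelial genes summed to 102 to 119, 74.9 to 83.6, 183 to 288 and 186 to 204 CPM with Cxcl12 at 0, while the B-lymphoid and T-lymphoid lists summed to 7.93 to 21.6 CPM and 4.34 to 10.7 CPM over the 12 libraries, with Pax5, Cd3e and Cd8a at 0. Single markers went both ways. By edgeR's test, 3 of the 8 markers of blood cells and myeloid progenitors were higher and 4 lower with NRAS alone, and 3 and 5 with both vectors. Among them, Cd34 was at 1.17 and 1.48 and Mpo at -1.33 and -2.34. Of the 11 monocyte and macrophage genes, whose sums overlapped between empty vectors and NRAS, 2 were higher and 6 lower with NRAS, from -2.21 for Cx3cr1 to 3.44 for Cd14, 6 and 0 with SETBP1, and 3 and 2 with both. Of the 11 late neutrophil genes, 2 were higher and 6 lower with NRAS, and 0 and 9 both with SETBP1 and with both vectors. Beside these marker counts, 17.0% of all tested genes were called higher and 15.5% lower with NRAS. The shares were 8.31% and 6.55% with SETBP1, and 20.8% and 19.8% with both vectors. These marker levels moved with the groups, and the part of the cell mixture in the results on replication and mitosis genes was not tested. In such bulk RNA, fewer cells of a type and less RNA per cell cannot be told apart.

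Per kilobase of longest transcript, the levels of the 46 genes (mean of the 4 group means) spanned more than 2 orders of magnitude. Rrm2, a subunit of the ribonucleotide reductase that makes deoxynucleotides, was the most abundant at 283 CPM per kb. Next came the helicase subunits Mcm6 and Mcm3 at 153 and 133, the mitotic kinase gene Aurka at 129.8 and Pcna, the sliding clamp of DNA polymerases, at 129 CPM per kb. Ung, a uracil-removing glycosylase, was lowest at 2.20, followed by Pole, the catalytic subunit of polymerase epsilon, at 4.05 and the kinetochore gene Cenpf at 4.49 CPM per kb. The set level was taken in each library as the mean over genes of log2 CPM minus each gene's own mean over the 12 libraries. For the G1/S genes it was -0.07 ± 0.01 in the empty-vector group, -0.09 ± 0.05 with SETBP1, 0.10 ± 0.04 with NRAS and 0.06 ± 0.02 with both (SD, n = 3). All 6 libraries with NRAS lay above all 6 without it. For the G2/M genes it was 0.01 ± 0.02, -0.18 ± 0.04, 0.09 ± 0.04 and 0.08 ± 0.06. The 3 SETBP1 libraries, at -0.14, -0.21 and -0.20, lay below every other library, and 1 SETBP1+NRAS library, at 0.02, lay within the empty-vector range. The scale mattered for these levels, since TMM factors were 1.04 to 1.05 in the empty-vector libraries, 0.954 to 1.05 with SETBP1, 0.980 to 0.982 with NRAS and 0.950 to 0.975 with both. As a share of all counts, the G1/S genes took 0.515% to 0.542%, 0.464% to 0.517%, 0.545% to 0.577% and 0.520% to 0.538% in those groups, so that on this scale the SETBP1+NRAS and empty-vector libraries overlapped. The G2/M genes took 0.332% to 0.342%, 0.275% to 0.305%, 0.327% to 0.348% and 0.311% to 0.338%, lowest again in the 3 SETBP1 libraries. The NRAS group had the highest mean for 15 of the 30 G1/S genes, and the SETBP1 group the lowest for 14 of them and for 10 of the 16 G2/M genes.

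**Figure D2:**
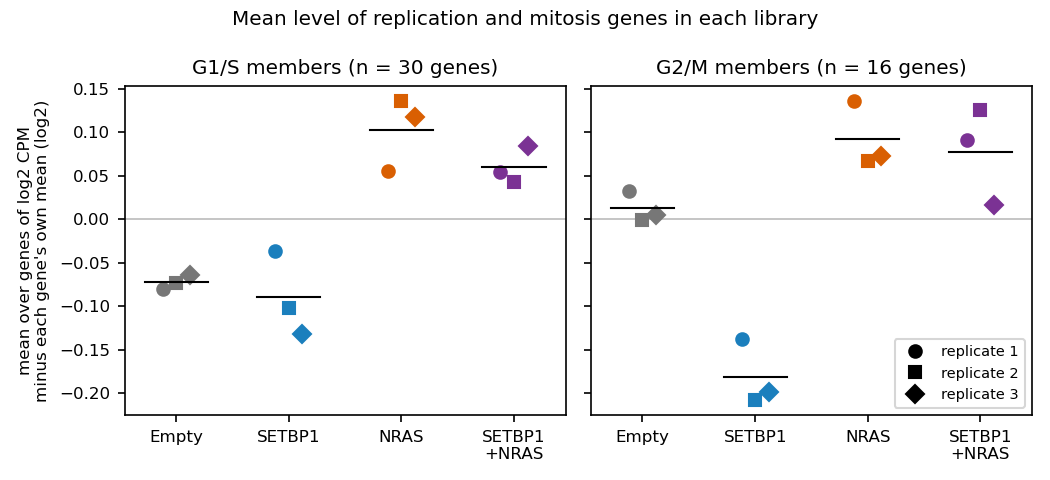
For each of the 12 libraries, the y axis gives the mean over the G1/S genes (left) or G2/M genes (right) of log2 CPM minus the gene's own mean, by group, with a symbol per replicate and a line for the group mean. All NRAS and SETBP1+NRAS libraries lie above all others for the G1/S genes, and the 3 SETBP1 libraries lie lowest for the G2/M genes.

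**Figure D3:**
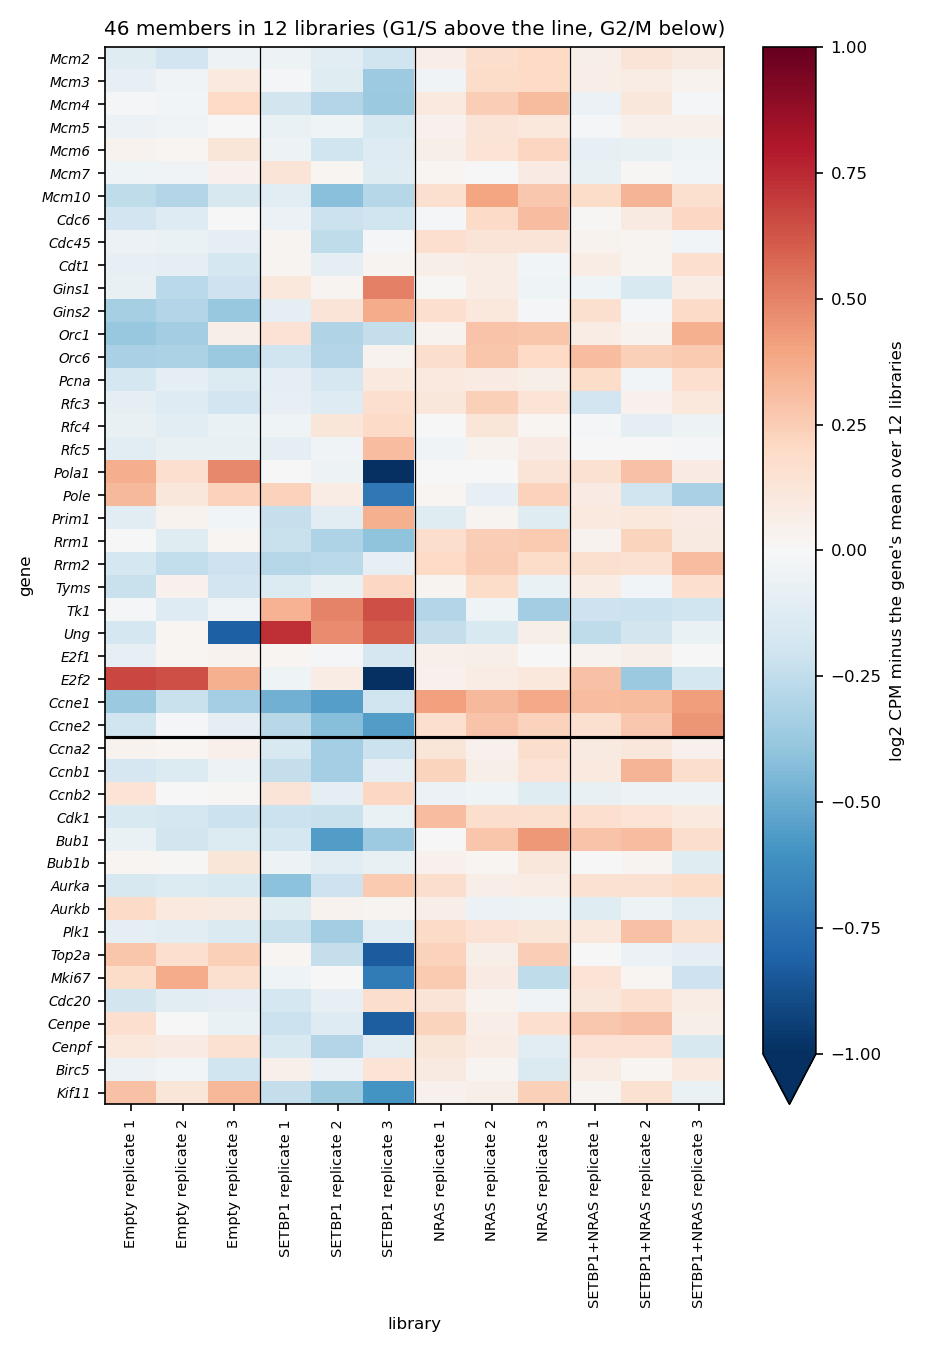
Each row is 1 of the 46 genes and each column 1 of the 12 libraries, and the colour gives log2 CPM minus the gene's mean over the libraries. SETBP1 replicate 3 held the highest value for 7 and the lowest for 11 of the 30 G1/S genes, and the highest for 4 and the lowest for 4 of the 16 G2/M genes.

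With NRAS alone, replication and mitosis genes that passed the test were all higher than with empty vectors, by modest amounts. By edgeR's quasi-likelihood test with Benjamini-Hochberg adjustment over all tested genes (threshold 0.05), 9 of 30 G1/S genes rose and 0 fell. Over all tested genes, 17.0% were called higher and 15.5% lower, 32.5% in all, so the share of G1/S genes called was near the background while the direction was 1 way. Their median log2 change was 0.17 (range -0.49 to 0.68), 25 of 30 were positive, and the median of all genes was -0.01. The NRAS and empty-vector libraries did not overlap for 16 G1/S genes that were higher and 2 that were lower, Pola1 and E2f2, against 28.4% and 27.9% of all genes.

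The 4 largest changes past the threshold were those of Ccne1, Orc6, Mcm10 and Rrm2. Ccne1, which encodes the cyclin E1 that drives entry into S phase with CDK2, stood at 65.9, 73.4 and 67.6 CPM in the empty-vector libraries, 61.2, 58.3 and 74.7 with SETBP1, 114, 107 and 111 with NRAS and 106, 106 and 114 with both. The 6 libraries with NRAS lay above the 6 without it, and Ccne1 rose 1.60-fold with NRAS alone, a log2 change of 0.68 (SE 0.10, adjusted p 1.19e-04). Orc6, a subunit of the origin recognition complex, stood at 77.4, 77.8 and 74.9 CPM with empty vectors, 84.5, 79.2 and 99.0 with SETBP1, 109, 117 and 111 with NRAS and 119.9, 114 and 116 with both. Its libraries with NRAS also lay above all others, and it rose with NRAS alone by 0.55 (SE 0.09, adjusted p 2.75e-04) on the log2 scale. Mcm10, which helps to start the assembled helicase, stood at 76.9, 74.9 and 82.0 CPM with empty vectors, 84.7, 68.6 and 75.1 with SETBP1, 103, 121 and 110.4 with NRAS and 104, 116 and 103 with both, and it too rose with no overlap, by 0.51 (SE 0.10, adjusted p 0.00119). Rrm2 stood at 542, 518 and 531 CPM with empty vectors, 504, 509 and 581 with SETBP1, 704, 730.3 and 697 with NRAS and 686, 683 and 759 with both. All its libraries with NRAS were above all those without, and it rose by 0.42 (SE 0.07, adjusted p 5.16e-04). The calls of Ccne1, Orc6, Mcm10 and Rrm2 with NRAS held under all 18 other settings and left-out libraries.

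**Figure D4:**
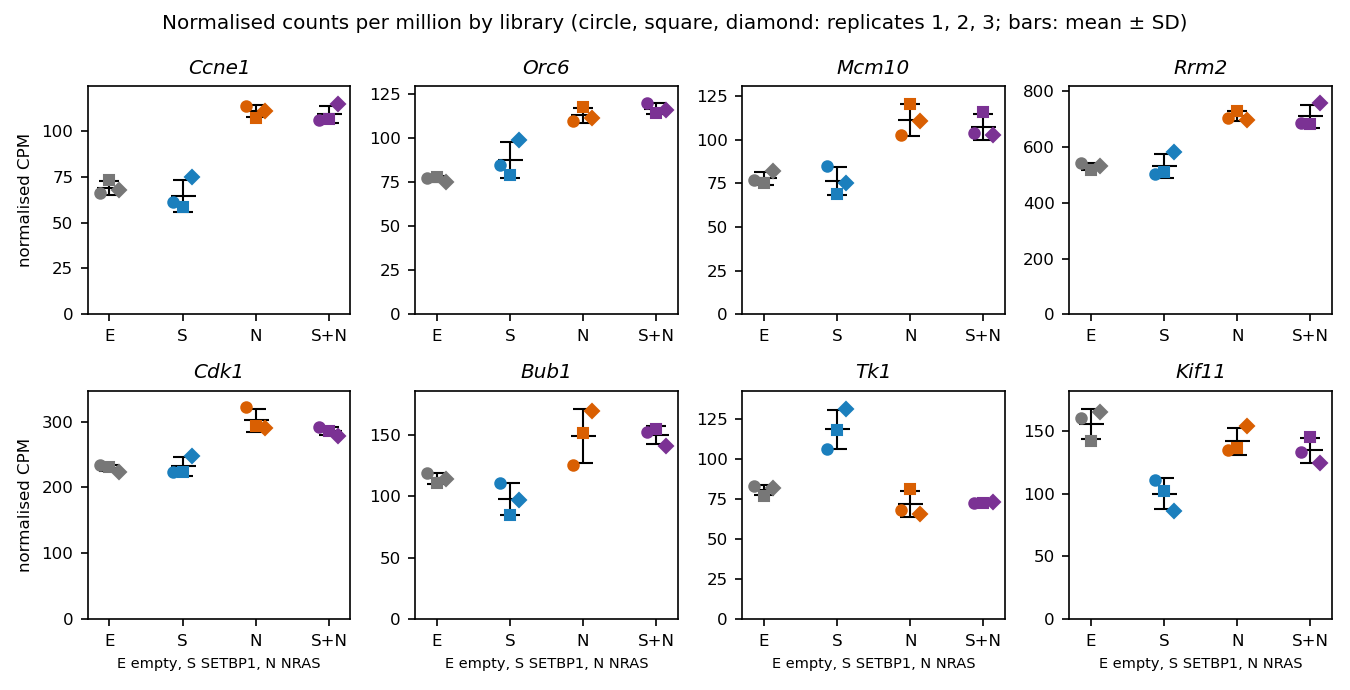
Each panel shows 1 gene (Ccne1, Orc6, Mcm10, Rrm2, Cdk1, Bub1, Tk1 or Kif11), with normalised CPM from 0 on the y axis, the 4 groups on the x axis, a symbol for each of the 3 replicates and bars for mean ± SD. For Ccne1, Orc6, Mcm10, Rrm2 and Cdk1 all 6 libraries with NRAS lie above all 6 without, while Tk1 is highest and Kif11 lowest in the 3 SETBP1 libraries.

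Across the 14 origin licensing and helicase genes (Mcm2 to Mcm7, Mcm10, Cdc6, Cdc45, Cdt1, Gins1, Gins2, Orc1 and Orc6), all 14 fitted changes with NRAS were positive, with a median of 0.21, and 5 rose (35.7%, near the 32.5% of all genes called). Besides Orc6 and Mcm10 these were Mcm2, a core helicase subunit, at 0.27 (adjusted p 0.00789), Cdc6, a helicase loading factor, at 0.28 (adjusted p 0.0389), and Gins2, a subunit of the GINS helicase cofactor. Mcm2 stood at 302, 287 and 316 CPM in the empty-vector libraries and 344, 369 and 375 with NRAS, with no overlap. Gins2 stood at 47.3, 48.6 and 45.9 CPM in the empty-vector libraries, 55.8, 65.2 and 76.9 with SETBP1, 66.9, 64.1 and 58.8 with NRAS and 66.6, 59.3 and 68.2 with both. It rose with NRAS by 0.42 (SE 0.12, adjusted p 0.0134), and the 3 empty-vector libraries were the lowest of the 12. Gins2 is uncertain, since 67.3% of its exonic bases overlap Gse1 on the opposite strand and the sources used here do not say whether counting used strand. Mcm6, the most abundant helicase gene per length, stood at 679.8, 673 and 721 CPM with empty vectors, 641, 577 and 607 with SETBP1, 691, 729 and 768 with NRAS and 625, 628 and 644 with both. Its value with NRAS, 0.08 (SE 0.07, adjusted p 0.398), did not pass.

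Of the 5 genes for nucleotide supply and uracil removal, Rrm1 and Rrm2, the subunits of ribonucleotide reductase, rose with NRAS. Rrm1 stood at 403, 371 and 409.6 CPM with empty vectors, 347, 326 and 305 with SETBP1, 457, 479.9 and 485 with NRAS and 413, 472 and 431 with both, which put the NRAS libraries above and the SETBP1 libraries below the empty-vector ones, and its change with NRAS was 0.26 (SE 0.07, adjusted p 0.014). Tk1, Ung and Tyms, the thymidylate synthase gene, did not pass, with log2 values of -0.16, 0.17 and 0.17. Among the E2F and cyclin E genes, Ccne2 rose beside Ccne1. It stood at 92.3, 105 and 99.6 CPM with empty vectors, 87.4, 79.1 and 71.8 with SETBP1, 119, 129 and 124 with NRAS and 119, 128 and 144 with both, so that every NRAS library exceeded every empty-vector library, and its log2 change was 0.33 (SE 0.10, adjusted p 0.0183). Of the 7 polymerase, clamp and clamp loader genes (Pcna, Rfc3, Rfc4, Rfc5, Pola1, Pole and Prim1), 0 were called with NRAS by edgeR. Pcna and Rfc3 had an unadjusted p under 0.05 by that test (0.21 and 0.30, adjusted p 0.0592 and 0.0595), as did 4672 of all 10993 tested genes. DESeq2 called 1, Pcna, at adjusted p 0.0466, against 34.4% of all genes.

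Leaving out 1 library changed several of these calls. Mcm2 kept its call with NRAS without any 1 library. Cdc6 lost it without empty-vector replicate 1 or 2, NRAS replicate 2 or 3 or SETBP1+NRAS replicate 2 (adjusted p 0.052 to 0.178), Gins2 without empty-vector replicate 3 or NRAS replicate 1 (adjusted p 0.0533 to 0.0545), Rrm1 without empty-vector replicate 2 or NRAS replicate 3 (adjusted p 0.0535 to 0.0731) and Ccne2 without empty-vector replicate 1 or 3 or NRAS replicate 2 or 3 (adjusted p 0.0516 to 0.0928). Without SETBP1 replicate 3, 13 G1/S genes rose and 2 fell, against 47.0% of all genes called in either direction. Added were Cdc45, Orc1, Pcna and Rfc3, which were higher, and Pola1 (-0.30) and E2f2 (-0.49), which were lower. With library totals in place of TMM, the median of all genes shifted by -0.10, 6 G1/S genes passed, and 1 of them, Tk1, was lower, against 33.1% of all genes called.

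Among the G2/M genes, 4 of 16 rose with NRAS alone and 0 fell, so that 25% were called, below the 32.5% of all genes called (17.0% higher and 15.5% lower). The median log2 change was 0.08 (range -0.19 to 0.40), 10 of 16 were positive, and the median turned to -0.01 when library totals were used. Cdk1, the kinase that triggers mitosis, stood at 234, 231 and 224 CPM in the empty-vector libraries, 224, 223 and 248 with SETBP1, 322, 293 and 291 with NRAS and 291, 286 and 279 with both. All 6 libraries with NRAS lay above the 6 without, and Cdk1 rose by 0.40 (SE 0.07, adjusted p 5.74e-04). Bub1, a spindle checkpoint kinase, stood at 119, 111 and 114 CPM with empty vectors, 111, 84.9 and 97.4 with SETBP1, 126, 152 and 169.7 with NRAS and 153, 155 and 142 with both, higher in every library with NRAS, with a log2 change of 0.38 (SE 0.11, adjusted p 0.0199). Plk1, a kinase for mitotic entry and spindle poles, stood at 206, 204 and 198 CPM with empty vectors, 188, 172 and 202 with SETBP1, 251, 242 and 238 with NRAS and 236, 269 and 245 with both. Its change with NRAS was 0.27 (SE 0.08, adjusted p 0.0154), and the libraries with and without NRAS did not overlap. Ccnb1, the cyclin B1 partner of CDK1, stood at 227, 232 and 246 CPM with empty vectors, 216, 201 and 239 with SETBP1, 298, 266 and 282 with NRAS and 273, 323 and 288 with both, and every library with NRAS was above every library without it, with a change of 0.26 (SE 0.08, adjusted p 0.0277). Aurka and Cdc20, the anaphase activator, had non-overlapping higher values with NRAS (0.26 and 0.18, adjusted p 0.129 and 0.143), and Ccnb2 and Aurkb non-overlapping lower ones (-0.12 and -0.14, adjusted p 0.263 and 0.145), and none of these 4 passed. Bub1 lost its call without empty-vector replicate 2 or 3 or NRAS replicate 2 or 3 (adjusted p 0.0599 to 0.112), Plk1 without empty-vector replicate 3 or NRAS replicate 1 (adjusted p 0.0581 to 0.0679) and Ccnb1 without empty-vector replicate 1 or 2 or NRAS replicate 1 or 3 (adjusted p 0.0724 to 0.11). The count fell to 2 without empty-vector replicate 2 or 3 or NRAS replicate 1 or 3, where 25.3% to 25.9% of all genes were called. It rose to 6, with Aurka and Cdc20 added, without SETBP1 replicate 3, where 47.0% of all genes were called. Under library totals only Cdk1 of the 4 genes that rose was called, and Ccnb2 and Aurkb were called lower, against 33.1% of all genes called.

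The same contrast could be read in other libraries, those with SETBP1, since SETBP1+NRAS against SETBP1 shares no library with NRAS against empty. There, 9 of 30 G1/S genes rose and 2 fell, and 7 of 16 G2/M genes rose and 0 fell, against 20.9% of all genes higher and 21.5% lower (42.4% in all). The shares called, 36.7% and 43.8%, were below and near that of all genes. Of the 9 G1/S genes that rose with NRAS alone and the 9 that rose in the presence of SETBP1, 8 were shared: Ccne1, Ccne2, Orc6, Mcm10, Rrm2, Rrm1, Mcm2 and Cdc6. Of the 4 and 7 G2/M genes, 4 were shared: Cdk1, Bub1, Plk1 and Ccnb1. The shared G1/S genes were 88.9% of each list, and the shared G2/M genes were all 4 of the first and 57.1% of the second list. Over all tested genes, 1868 and 2293 were called higher, and the 1372 shared were 73.4% and 59.8% of these, so sharing was common among all genes too. The number called in opposite directions was 0. Both comparisons came from the same fit of all libraries, with shared scaling and a shared estimate of spread, so the calls were not fully separate. With SETBP1 present, Ccne1 rose 1.68-fold, a log2 change of 0.75 (SE 0.10, adjusted p 3.97e-05), Ccne2 by 0.71 (SE 0.10, adjusted p 6.03e-05), Mcm10 by 0.50 (SE 0.10, adjusted p 0.00118), Rrm1 by 0.43 (SE 0.07, adjusted p 4.65e-04), Rrm2 by 0.42 (SE 0.07, adjusted p 4.20e-04) and Orc6 by 0.41 (SE 0.09, adjusted p 0.00188). Bub1 rose by 0.62 (SE 0.11, adjusted p 7.31e-04), Ccnb1 by 0.43 (SE 0.08, adjusted p 0.0012), Plk1 by 0.41 (SE 0.08, adjusted p 6.91e-04) and Cdk1 by 0.30 (SE 0.07, adjusted p 0.00327). The median over G1/S genes was 0.11 (range -0.77 to 0.75) and that over G2/M genes 0.25 (range -0.15 to 0.62), against -0.00 over all genes. The SETBP1+NRAS and SETBP1 libraries did not overlap for 12 G1/S genes that were higher and 2 that were lower, and for 7 and 0 G2/M genes, against 24.8% and 24.0% of all genes.

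A further 1 G1/S and 3 G2/M genes rose with NRAS in the presence of SETBP1, and Tk1 and Ung fell. Mcm4, a helicase subunit, rose by 0.29 (SE 0.09, adjusted p 0.0162), Ccna2, which encodes the cyclin A2 of S phase and mitotic entry, by 0.31 (SE 0.07, adjusted p 0.00191), Kif11, the motor that separates spindle poles, by 0.43 (SE 0.10, adjusted p 0.0045), and Cenpe, a kinetochore motor, by 0.57 (SE 0.15, adjusted p 0.0065). Cenpe stood at 119, 106 and 101 CPM in the empty-vector libraries, 91.3, 97.0 and 59.7 with SETBP1, 124, 111 and 119 with NRAS and 128, 129.5 and 111 with both, with SETBP1 replicate 3 the lowest of the 12. Tk1, the thymidine kinase of the salvage pathway, fell by 0.71 (SE 0.10, adjusted p 8.11e-05) and Ung by 0.77 (SE 0.25, adjusted p 0.0227) on the log2 scale. None of these genes was called with NRAS alone. In SETBP1 against empty, Mcm4, Ccna2 and Kif11 were called lower and Tk1 and Ung higher (given below). That comparison uses the same SETBP1 libraries, so these opposite values are not separate observations of a change with NRAS. Without SETBP1 replicate 3, 11 G1/S genes rose and 2 fell and 9 G2/M genes rose, against 46.5% of all genes called. Cdc6 lost its call without empty-vector replicate 1, 2 or 3, SETBP1 replicate 2, NRAS replicate 2 or SETBP1+NRAS replicate 2 or 3 (adjusted p 0.0561 to 0.151), Mcm2 without SETBP1 replicate 2 or SETBP1+NRAS replicate 2 or 3 (adjusted p 0.0528 to 0.0741), Mcm4 without SETBP1+NRAS replicate 2 (adjusted p 0.0753) and Ung without SETBP1 replicate 1 or SETBP1+NRAS replicate 1 or 2 (adjusted p 0.0515 to 0.0712). The G1/S count was 7 without SETBP1+NRAS replicate 2, and also 7 when only the 6 libraries compared were fitted, against 33.0% and 28.9% of all genes called.

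**Figure D5:**
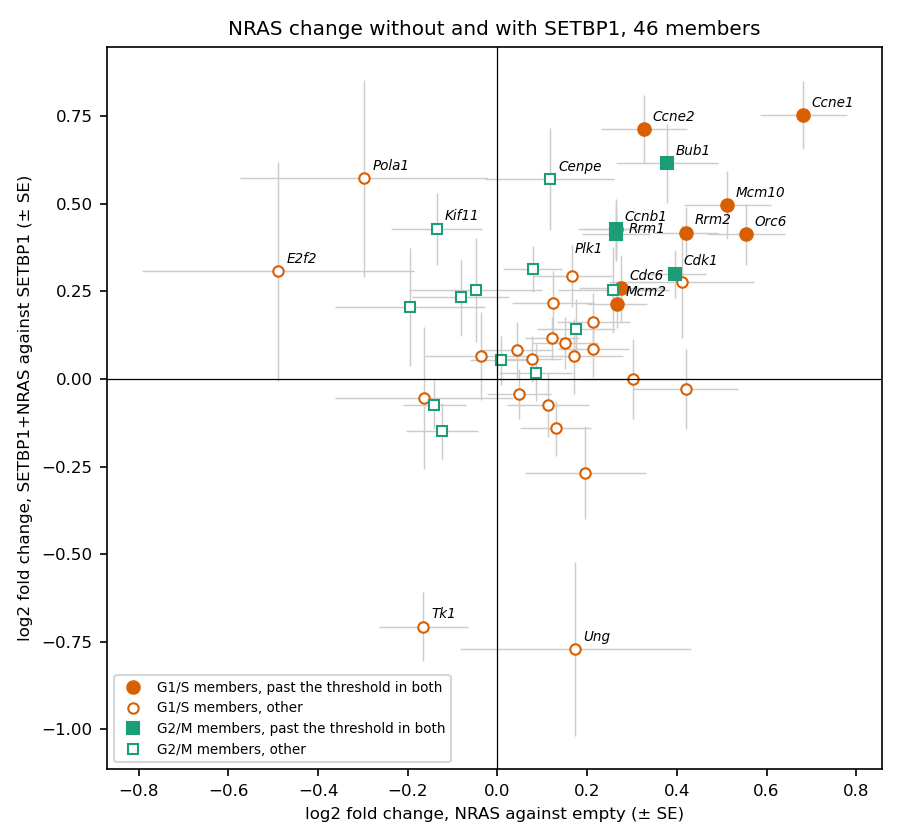
Each point is 1 of the 46 genes, with its log2 fold change from empty vectors to NRAS on the x axis and from SETBP1 to SETBP1+NRAS on the y axis, bars being the SE, and filled symbols mark genes past the threshold in both. The 12 filled points, 8 G1/S and 4 G2/M genes, all lie above 0 on both axes, while Tk1 and Ung lie below 0 on the y axis.

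With SETBP1 alone, some mitotic genes fell, while G1/S genes were called in both directions. Among the G2/M genes 3 of 16 fell and 0 rose, against 6.55% of all genes lower and 8.31% higher (14.9% called, beside 18.8% of the G2/M genes). Their median log2 change was -0.14 (range -0.64 to 0.14), 11 of 16 were negative, and the median of all genes was -0.01. For 8 of the 16, Ccna2, Bub1b, Aurkb, Top2a, Mki67, Cenpe, Cenpf and Kif11, all SETBP1 libraries lay below all empty-vector libraries, and for 0 above, against 16.5% and 16.7% of all genes. Kif11 stood at 160.2, 142 and 165 CPM in the empty-vector libraries, 111, 103 and 86.5 with SETBP1, 135, 136 and 154 with NRAS and 134, 145 and 125 with both. The SETBP1 libraries were the 3 lowest of the 12, and Kif11 fell 1.56-fold, a log2 change of -0.64 (SE 0.10, adjusted p 0.00279). Top2a, the topoisomerase that untangles replicated chromosomes, stood at 382, 355 and 372 CPM with empty vectors, 320.2, 267 and 178 with SETBP1, 369.6, 329 and 373 with NRAS and 315, 303 and 294 with both. It changed by -0.53 (SE 0.15, adjusted p 0.0303) with SETBP1 replicate 3 lowest, and by -0.33 (adjusted p 0.00762) without that library. Ccna2 stood at 357, 353 and 361 CPM with empty vectors, 314, 275 and 300.2 with SETBP1, 379, 359 and 393 with NRAS and 370.2, 376 and 359 with both, lower in each SETBP1 library than in any other, and changed by -0.27 (SE 0.07, adjusted p 0.019). Mki67, the marker of dividing cells, stood at 213, 242 and 209.8 CPM in the empty-vector libraries and 182, 187 and 116 with SETBP1, and did not pass (-0.46, adjusted p 0.0786). Without SETBP1 replicate 3 the same 3 genes were called lower, Kif11 at -0.55 and Ccna2 at -0.28, against 15.3% of all genes called. Ccna2 lost its call without empty-vector replicate 1, 2 or 3 or SETBP1 replicate 2 (adjusted p 0.0503 to 0.0862) and Top2a without empty-vector replicate 1, 2 or 3 or SETBP1 replicate 2 (adjusted p 0.0511 to 0.104), which left 1 G2/M call without each empty-vector library, and 5 genes were called lower without SETBP1 replicate 1. Without empty-vector replicates 1, 2 and 3, 4.44%, 9.77% and 3.50% of all genes were called, and without SETBP1 replicate 1, 28.7%. Fitted on the 6 libraries compared alone, 0 G2/M genes and 0 G1/S genes were called, where 1.03% of all genes were, with Kif11 at adjusted p 0.0532 and Tk1 at 0.0521.

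Of the 30 G1/S genes, 3 rose and 3 fell with SETBP1, with a median of 0.00 (range -0.93 to 0.88). That is 20% called, against 14.9% of all genes. Values of the SETBP1 and empty-vector libraries did not overlap for 6 that were higher and 6 that were lower, 20% each, against 16.7% and 16.5% of all genes, so these shares were near the background. Tk1 stood at 82.7, 76.7 and 81.5 CPM in the empty-vector libraries, 106, 118 and 131 with SETBP1, 68.3, 81.0 and 65.7 with NRAS and 72.4, 72.2 and 73.1 with both. The 3 SETBP1 libraries were the highest of the 12, and Tk1 rose 1.47-fold, a log2 change of 0.56 (SE 0.10, adjusted p 0.00455). Ung, at 3.98, 4.57 and 2.56 CPM with empty vectors, 7.47, 6.27 and 6.86 with SETBP1, 3.83, 4.06 and 4.69 with NRAS and 3.78, 3.97 and 4.31 with both (19 to 62 counts per library), also had its highest 3 values with SETBP1 and rose by 0.88 (SE 0.25, adjusted p 0.0311). Gins2 rose by 0.48 (SE 0.12, adjusted p 0.0181). Mcm4, at 257, 256 and 300.3 CPM with empty vectors, 229.8, 214 and 201 with SETBP1, 279, 309 and 325 with NRAS and 251, 282 and 257 with both, was lowest in the SETBP1 group and changed by -0.33 (SE 0.09, adjusted p 0.0249). Rrm1 changed by -0.28 (SE 0.07, adjusted p 0.0272) and Ccne2 by -0.32 (SE 0.10, adjusted p 0.043). E2f2, a cell-cycle E2F factor, and Pola1, the catalytic subunit of the polymerase that starts each strand, had larger negative values that did not pass, -0.93 (SE 0.31, adjusted p 0.0573) and -0.74 (SE 0.28, adjusted p 0.0871), with SETBP1 replicate 3 far below the other libraries. Without that library E2f2 was at -0.55 (adjusted p 0.021) and Pola1 at -0.37 (adjusted p 0.0283), both called, Ccne2 was not (adjusted p 0.0739), and 3 genes rose and 4 fell, against 15.3% of all genes called.

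Only Tk1 of these 6 G1/S calls with SETBP1 held without any 1 library. Gins2 lost its call without empty-vector replicate 1 or 3 (adjusted p 0.064 to 0.0779), Mcm4 without empty-vector replicate 1 or 3 or SETBP1 replicate 2 (adjusted p 0.0536 to 0.129), Rrm1 without empty-vector replicate 1 or 3 or SETBP1 replicate 2 (adjusted p 0.0547 to 0.12) and Ung without empty-vector replicate 1 or 3 (adjusted p 0.0811 to 0.13). Ccne2 lost it without empty-vector replicate 1, 2 or 3, SETBP1 replicate 2 or 3, NRAS replicate 1, 2 or 3 or SETBP1+NRAS replicate 1 or 2 (adjusted p 0.0517 to 0.134), and in 12 of the 18 other settings in all. The count of G1/S calls fell to 1 without empty-vector replicate 1 or 3, where 4.44% and 3.50% of all genes were called. It rose to 11 without SETBP1 replicate 1, where 28.7% of all genes were called.

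No change of the 46 genes was called when SETBP1 was added to NRAS. By edgeR 0 G1/S and 0 G2/M genes were called in SETBP1+NRAS against NRAS, where 0.528% of all genes were called higher and 1.38% lower, 1.91% in all. By DESeq2 also 0 and 0 were called, against 3.45% of all genes. In edgeR's test 2 and 0 had an unadjusted p under 0.05, as did 1283 of all 10993 tested genes. The medians were -0.05 (range -0.21 to 0.16) and 0.01 (range -0.23 to 0.08). Ccne1 differed by -0.02 (SE 0.10), Orc6 by 0.05 (SE 0.09), Cdk1 by -0.08 (SE 0.07) and Kif11 by -0.08 (SE 0.10). Non-overlapping values were lower for Mcm6, Cdc45, Rfc3, Rfc4 and Top2a and higher for Prim1, the primase subunit, 1 of 30 and 0 of 16 higher and 4 of 30 and 1 of 16 lower, against 12.3% and 12.9% of all genes. Mcm6 was at -0.21 (SE 0.07, adjusted p 0.162) and Top2a at -0.23 (SE 0.15, adjusted p 0.661). Without SETBP1 replicate 3, which is in neither group, both were called lower, Mcm6 at adjusted p 0.0332 and Top2a at 0.0451, against 7.52% of all genes called. The same 2 genes were called when only the 6 libraries compared were fitted, against 8.37% of all genes.

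Whether the SETBP1 change differed with and without NRAS was tested as an interaction, the log2 change with NRAS minus that without. By edgeR 0 G1/S and 0 G2/M genes passed, against 0.0455% of all genes (0.00910% higher and 0.0364% lower). In the same test 7 and 3 had an unadjusted p under 0.05, as did 1420 of all 10993 tested genes. Tk1, at -0.54 (SE 0.14, adjusted p 0.206), and Kif11, at 0.56 (SE 0.14, adjusted p 0.206), had the lowest adjusted p of their sets. DESeq2 called both, with adjusted p 0.0426 and 0.0473, against 0.846% of all genes. On simulated counts for NRAS against empty, DESeq2 gave 11.8% false calls and edgeR 3.64%. No simulation was run for the interaction. Without SETBP1 replicate 3, Tk1 was at -0.46 (adjusted p 0.0832) and Kif11 at 0.47 (adjusted p 0.0605), and 0 members were called, against 0.990% of all genes. No other member was called by either tool, so a difference between the SETBP1 changes with and without NRAS was not shown for the members that passed in 1 of them alone.

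Both vectors against empty shares its empty-vector libraries with NRAS alone and SETBP1 alone against empty, and gave 9 G1/S genes higher and 0 lower and 5 G2/M genes higher and 1 lower, against 20.8% and 19.8% of all genes (40.6% in all). The groups did not overlap for 14 G1/S genes that were higher and 4 that were lower and for 7 and 4 G2/M genes, against 30.7% and 30.5% of all genes. Medians were 0.13 and 0.10, and the latter turned to -0.02 under library totals, which shifted the median of all genes by -0.13. Ccne1 rose by 0.66 (SE 0.10, adjusted p 1.05e-04), Orc6 by 0.60 (SE 0.09, adjusted p 9.18e-05), Mcm10 by 0.46 (SE 0.10, adjusted p 0.0018), Rrm2 by 0.42 (SE 0.07, adjusted p 3.73e-04) and Gins2 by 0.45 (SE 0.12, adjusted p 0.00687). Called higher here and in no other comparison were Pcna, by 0.25 (SE 0.08, adjusted p 0.0265), Cdt1, a helicase loading factor, by 0.21 (SE 0.07, adjusted p 0.0383), and Cdc20, by 0.25 (SE 0.09, adjusted p 0.0338). Pcna stood at 173, 184 and 178 CPM with empty vectors, 184, 174 and 209 with SETBP1, 209, 207 and 204 with NRAS and 222, 192 and 220.4 with both, with the SETBP1+NRAS libraries above the empty-vector ones. Cdc20 stood at 182, 191 and 193 CPM with empty vectors, 183, 195 and 233 with SETBP1, 226, 212 and 202 with NRAS and 223, 233 and 218 with both, with 1 SETBP1 library level with the SETBP1+NRAS group. Aurkb, the chromosomal passenger kinase, was the 1 gene called lower. It stood at 228, 213 and 212 CPM with empty vectors, 183, 204 and 203 with SETBP1, 209, 191 and 193 with NRAS and 183, 192 and 186 with both, below the empty-vector range in every library of the other groups, and changed by -0.22 (SE 0.07, adjusted p 0.0238). Aurka, its relative at the spindle poles, stood at 219, 223 and 219.8 CPM with empty vectors, 184, 213 and 293 with SETBP1, 277, 257 and 258 with NRAS and 272, 272 and 279 with both and did not pass (0.31, adjusted p 0.057), with SETBP1 replicate 3 the highest library. Pcna lost its call without empty-vector replicate 1 or 3 or SETBP1+NRAS replicate 1 or 3 (adjusted p 0.0816 to 0.104), Cdt1 without empty-vector replicate 1, 2 or 3, NRAS replicate 1 or 2 or SETBP1+NRAS replicate 1 or 3 (adjusted p 0.0517 to 0.15), Cdc20 without empty-vector replicate 1, 2 or 3 or SETBP1+NRAS replicate 1, 2 or 3 (adjusted p 0.0565 to 0.122), Aurkb without empty-vector replicate 1 or SETBP1+NRAS replicate 1 or 3 (adjusted p 0.0726 to 0.0936), Bub1 without empty-vector replicate 2 or 3 or SETBP1+NRAS replicate 2 (adjusted p 0.05005 to 0.0575) and Mcm2 without empty-vector replicate 1 or 2 or SETBP1+NRAS replicate 2 or 3 (adjusted p 0.0562 to 0.0981). Without SETBP1 replicate 3, 12 G1/S genes rose and 2 fell and 6 G2/M genes rose and 4 fell, against 53.7% of all genes called.

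Called in no comparison were 16 of the 30 G1/S genes and 6 of the 16 G2/M genes. The matching share of all tested genes was not computed, so these counts describe the members only. Their mean CPM in the empty-vector, SETBP1, NRAS and SETBP1+NRAS groups is given in that order. For the helicase subunits these means were 400.3, 359.5, 436 and 418 for Mcm3, 385, 370.0, 419 and 401 for Mcm5, 691, 608, 729 and 632 for Mcm6 and 309, 314, 319 and 305 for Mcm7. Cdc45 and Gins1, which join the active helicase, were at 130.3, 130.2, 151 and 138 and at 29.0, 38.6, 33.2 and 32.1, and Orc1, of the origin recognition complex, at 24.9, 26.5, 33.0 and 32.1. The NRAS means exceeded the empty-vector means for all 7. The clamp loader genes were at 33.6, 36.8, 41.4 and 36.8 for Rfc3, 98.0, 111, 107 and 100.4 for Rfc4 and 185, 206, 199.7 and 195 for Rfc5. The polymerase and primase genes were at 57.3, 34.5, 46.7 and 51.1 for Pola1, 33.3, 26.9, 29.7 and 25.9 for Pole and 77.9, 81.3, 76.0 and 85.1 for Prim1. Tyms was at 119.7, 131, 135 and 137, E2f1, an activating E2F factor, at 78.8, 76.4, 81.2 and 80.9 and E2f2 at 40.4, 21.3, 28.8 and 26.3. Among the mitotic genes, the cyclin gene Ccnb2 was at 183, 188, 168 and 169, Aurka at 221, 230.1, 264 and 274, the checkpoint gene Bub1b at 157, 143, 158 and 149 and Birc5, a chromosomal passenger protein, at 202, 223, 215 and 226. Mki67 was at 222, 162, 194 and 186 and Cenpf at 53.8, 43.7, 50.8 and 51.4.

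Neighbouring genes of the same phases were examined in the same fits, and again without SETBP1 replicate 3, a repeat chosen after seeing the data. Of 50 other S-phase genes, all tested, 9 rose and 3 fell with NRAS alone (median 0.06), 24% against the 32.5% of all genes called. The largest rises were Orc2 (0.52, adjusted p 0.0024) and Orc4 (0.48), subunits of the origin recognition complex. Gins3, of the GINS complex (-0.52), Dck, a deoxynucleoside salvage kinase (-0.37), and Rfc2, a clamp loader subunit (-0.20), were lower. With SETBP1 alone (12% called, against 14.9% of all genes) 1 rose, Pold2 (0.39), a subunit of polymerase delta, and 5 fell, with the largest changes in Msh6, a mismatch repair gene (-0.50), Casp8ap2 (-0.46) and Rfc1, the large clamp loader subunit (-0.43). In SETBP1+NRAS against SETBP1 (32% called, against 42.4% of all genes) 12 rose, led by Orc2 (0.59), Uhrf1, a factor of DNA methylation maintenance (0.53), and Cdc25a, a phosphatase that activates CDK2 (0.48), and 4 fell, led by Rpa3, a subunit of the single-strand binding protein (-0.51), and Rfc2 (-0.50). In SETBP1+NRAS against NRAS 0 of the 50 were called, against 1.91% of all genes, and 1 had an unadjusted p under 0.05, as did 1283 of all 10993 tested genes. Each of these shares lay below that of all genes, a difference that was not tested. When SETBP1 replicate 3 was left out, 14 rose and 6 fell with NRAS (40.0%, against 47.0% of all genes), 3 and 3 with SETBP1 (12%, against 15.3%), 13 and 5 in SETBP1+NRAS against SETBP1 (36.0%, against 46.5%), and 0 and 1 against NRAS (2.00%, against 7.52%). Rfc1 was then at -0.28 with SETBP1 (adjusted p 0.0368), while Msh6 (-0.36, adjusted p 0.0603) and Casp8ap2 (-0.30, adjusted p 0.0715) were no longer called.

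Of 59 other mitotic genes listed, 56 were tested (Knl1, Sgo1 and Sgo2a were not analysed here). With NRAS alone 5 rose and 0 fell (median 0.08), 8.93% called against 32.5% of all genes, led by the centrosomal kinase gene Nek2 (0.38, adjusted p 0.00437), Gtse1 (0.28) and Ube2c (0.28), the ubiquitin-conjugating enzyme of the anaphase-promoting complex. With SETBP1 alone 1 rose, Pttg1, which encodes securin (0.54), and 8 fell (median -0.12), 16.1% called against 14.9% of all genes, led by the chromokinesin gene Kif4 (-0.56), Ect2, an exchange factor for cytokinesis (-0.48), and Ccnf, which encodes cyclin F (-0.44, adjusted p 0.00761). In SETBP1+NRAS against SETBP1 19 rose and 5 fell (median 0.18), 42.9% called against 42.4% of all genes. Kif4 (0.70), Melk (0.58) and Gtse1 (0.57) were the largest rises, and the centromere gene Cenpm (-0.62), Pttg1 (-0.44) and Cks1b, a CDK-binding subunit (-0.36), the largest falls. Against NRAS, adding SETBP1 gave 0 of 56 calls by edgeR, beside 1.91% of all genes. It gave 0 unadjusted p under 0.05, beside 1283 of all 10993 tested genes. In the repeat with 11 libraries, 13 rose and 2 fell with NRAS (26.8%, against 47.0% of all genes), 1 rose and 11 fell with SETBP1 (21.4%, against 15.3%), 27 rose and 4 fell in SETBP1+NRAS against SETBP1 (55.4%, against 46.5%), and 0 were called against NRAS. Kif4 was then at -0.38 with SETBP1 (adjusted p 0.038) and 0.52 in SETBP1+NRAS against SETBP1, and Cenpm at -0.43 in the latter (adjusted p 0.0147). Ect2 with SETBP1 (-0.35, adjusted p 0.0666) and Pttg1 in SETBP1+NRAS against SETBP1 (-0.31, adjusted p 0.0543) were no longer called. SETBP1 against empty and SETBP1+NRAS against SETBP1 share the SETBP1 libraries, so that opposite values of 1 gene in them, such as those of Kif4 and Pttg1, are not separate observations.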

How the data were processed

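RNA was sequenced from 12 libraries of transduced mouse bone marrow, 3 per group. The table deposited by the authors holds raw, whole-number counts by gene symbol. Per the labels' protocols, total RNA was extracted with the RNeasy micro kit and libraries used Takara SMART-Seq chemistry for ultra low input. The submitters' processing notes name STAR, DESeq2 and mm10. The counting tool, annotation, strand and any filter are not given in the sources used here, so overlapping genes may share reads. Exons of 9 of the 46 genes overlap another counted gene, all on the opposite strand (Gins2 over 67.3%, Ccne2 over 17.4% and the others over 1.6% to 12.7% of exonic bases), and 4 (Pcna, Tyms, Ccnb1 and Ccnb2) have named pseudogenes that could take reads.

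From the counts, log2 fold changes and two-sided p-values came from edgeR 4.0.16 (R 4.3.3): TMM scaling, filterByExpr (minimum count 10, minimum total 15), and a quasi-likelihood F test on all 12 libraries as 4 group means, with Benjamini-Hochberg adjustment across the 10993 tested genes, which held 99.9% of the counts (5080 of 19910 genes had no count). Each SE was derived from that test, as the absolute log2 fold change divided by the square root of the F statistic. Set levels used log2 CPM with a prior count of 2. Sensitivity settings were DESeq2 1.42.0, DESeq2-style size factors, library totals, no low-count filter, only the groups compared, the replicate number as a block, and leaving out each library. On simulated counts for NRAS against empty, with 200 of 10993 genes changed, edgeR recovered 28.4% of log2 changes of 0.5 and 78.6% of log2 changes of 1, with 3.64% false calls. DESeq2 recovered 37.3% and 83.7% of these, with 11.8% false calls. The simulation changed far fewer genes than the 32.5% called for NRAS against empty in the data, so the recovery there may differ. Most changes of the 46 genes were below 0.5, so a gene that was not called may still have changed.

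Transcript lengths are those of the longest basic transcript of GENCODE M21, and promoters are RefSeq's. The labels name no sequencing batch or date. The genes, lists and settings were chosen with earlier results of these data known. Per-library values are given for genes past the threshold that were among the 3 largest changes of their set in either direction of a comparison, for the most abundant gene of each role, and for a few others (Mcm2, E2f2, Pola1 and Mki67, and changes alone for Cdc6 and Cdt1) chosen after their values were seen. From each wider list, up to 3 genes per direction are named, and 1 gene of this rule is not reported here.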

Additional observations from a re-analysis of the deposited data

How the results depend on the processing

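No value of the 55 calls of single genes changed direction in 990 refits, in which 861 remained past the threshold and 129 did not, and 26 of the 55 held in all 18 settings. The depth and the 3 libraries per group limit what small changes could be detected. Where only the libraries compared were fitted, calls numbered 16 G1/S and 11 G2/M genes for both vectors against empty, 1 and 1 for both against NRAS, 7 G1/S genes for both against SETBP1, 15 G1/S genes for NRAS against empty, and 0 and 0 for SETBP1 against empty. All genes were then called at 56.5%, 8.37%, 28.9%, 49.1% and 1.03% in that order. This setting leaves out SETBP1 replicate 3 from every comparison without the SETBP1 group. It could not be run for the interaction, which needs all 4 groups. DESeq2 called 1 G1/S and 1 G2/M gene for the interaction, against 0.846% of all genes. With each library left out in turn, G1/S calls ranged from 6 to 15 for NRAS against empty, 1 to 11 for SETBP1 against empty, 6 to 14 for both against empty, 0 to 1 for both against NRAS, 7 to 14 for both against SETBP1 and 0 to 0 for the interaction. G2/M calls ranged from 2 to 6, 1 to 5, 4 to 10, 0 to 1, 7 to 9 and 0 to 0 in the same order. Shares of all genes called ranged likewise, from 24.1% to 47.0%, 3.50% to 28.7%, 32.8% to 53.7%, 0.834% to 7.52%, 33.0% to 46.5% and 0.00898% to 0.990%. The lowest G1/S count for NRAS against empty, 6, came without NRAS replicate 3, and for both against empty, 6, without empty-vector replicate 1 or SETBP1+NRAS replicate 3. With the replicate block, SETBP1 against empty gave 3 G1/S calls and 4 G2/M calls, against 10.7% of all genes, and the other comparisons moved by at most 1 call. Same-numbered libraries of different groups did not deviate together across genes: the correlation ranged from -0.13 to 0.12 over 18 such pairs and from -0.14 to 0.16 over 36 others, and 2 of 12 libraries correlated best with their own number. Set medians moved by less than the spread between replicates in 197 of 214 refits. With library totals, the G2/M median turned from 0.08 to -0.01 for NRAS against empty and from 0.10 to -0.02 for both against empty, and the G1/S medians fell to 0.08, 0.01 and 0.03 for NRAS against empty, both against empty and both against SETBP1. The cause was not tested for any of these differences.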

Other observations

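With NRAS alone and in SETBP1+NRAS against SETBP1, genes that time the replication and mitotic waves were called about as often as all genes were. With SETBP1 alone the share was higher, a difference that was not tested. Of 16 E2F, retinoblastoma family and DREAM complex genes, 3 rose and 2 fell with NRAS alone, by edgeR's quasi-likelihood test with Benjamini-Hochberg adjustment, 31.2% against 32.5% of all genes. The shares were 25% (2 up, 2 down) with SETBP1 alone and 43.8% (4 up, 3 down) in SETBP1+NRAS against SETBP1, against 14.9% and 42.4%. E2f5, a repressive E2F factor, stood at 8.19, 10.0 and 8.23 CPM in the empty-vector libraries, 10.7, 14.5 and 13.5 with SETBP1, 15.7, 15.6 and 15.7 with NRAS and 14.8, 13.8 and 14.8 with both, and rose by 0.83 (SE 0.16, adjusted p 0.00136). E2f3, an activating E2F factor, rose by 0.67 (SE 0.17, adjusted p 0.00893) and Mybl2, which encodes B-MYB, by 0.43 (SE 0.10, adjusted p 0.00516). Rbl2, which encodes the p130 pocket protein of DREAM, stood at 74.8, 54.1 and 73.1 CPM with empty vectors, 60.5, 49.1 and 46.4 with SETBP1, 34.8, 41.4 and 44.2 with NRAS and 36.1, 40.7 and 41.6 with both and changed by -0.75 (SE 0.15, adjusted p 0.00147). Tfdp2, a partner of the E2F factors, changed by -0.74 (SE 0.14, adjusted p 9.02e-04).

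With SETBP1 alone, E2f5 rose by 0.55 (SE 0.16, adjusted p 0.0383) and E2f4, another repressive E2F factor, by 0.38 (SE 0.11, adjusted p 0.0322). Rb1, the retinoblastoma gene, stood at 55.2, 50.3 and 75.8 CPM in the empty-vector libraries, 39.7, 34.4 and 31.9 with SETBP1, 62.0, 51.8 and 69.2 with NRAS and 44.2, 51.1 and 44.8 with both, and changed by -0.77 (SE 0.16, adjusted p 0.00896). E2f8, a repressive factor of late S phase, changed by -0.54 (SE 0.14, adjusted p 0.0239). Between SETBP1+NRAS and SETBP1, the MuvB core genes Lin54 (0.71) and Lin9 (0.63) and Mybl2 (0.50) were among 4 genes called higher, and Tfdp2 (-0.78), Lin37 (-0.60) and Rbl2 (-0.40) were the 3 called lower. In SETBP1+NRAS against NRAS 0 of the 16 were called by edgeR, against 1.91% of all genes, and 1 had an unadjusted p under 0.05, as did 1283 of all 10993 tested genes. When SETBP1 replicate 3 was left out, a setting chosen after seeing the data, 5 rose and 2 fell with NRAS (43.8%, against 47.0% of all genes), 1 and 2 with SETBP1 (18.8%, against 15.3%) and 3 and 3 in SETBP1+NRAS against SETBP1 (37.5%, against 46.5%). E2f4 was then at 0.21 with SETBP1 (adjusted p 0.0407), Rb1 at -0.70 (adjusted p 0.00536), and E2f5 at 0.51 was no longer called (adjusted p 0.0566).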
